A study of Mus musculus with 6 samples.

Results

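The genes described here encode the machinery of oxidative phosphorylation: subunits of the 4 respiratory chain complexes and of the ATP synthase, with the assembly factors of complex I. They were taken by name from the deposited table: protein-coding genes whose symbol begins with Nduf, Uqcr, Atp5 or mt-, the 4 genes Sdha to Sdhd, and genes named Cox followed by a digit from 4 to 8. This gave 100 genes of the 20336 in the table, 87 encoded in the nucleus and 13 on mitochondrial DNA. The levels were measured by sequencing of polyA RNA from sorted large peritoneal macrophages, which are self-renewing cells resident in the peritoneal cavity of the mouse. All mice had received E. coli into the peritoneum 30 min earlier. The control mice carried the floxed allele of the proton-activated chloride channel PAC (genotype PAC F/F), and the knockout mice lacked PAC conditionally, each with 3 libraries. The genotype label of the knockout reads Cxcr3-PAC-/-, while the design text writes Cx3cr1-PAC−/−; the design text also mentions PBS-treated mice, which were not analysed here. A driver is named only by that prefix and only for the knockout, so an effect of the driver allele and of the lost channel cannot be told apart. The labels leave it unsaid which libraries come from different mice, and a p-value here covers the spread among libraries, which may be technical.

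Oxidative phosphorylation passes electrons from NADH (complex I) and succinate (complex II) through complex III and cytochrome c to oxygen at complex IV, and complexes I, III and IV pump protons whose return through the ATP synthase (complex V) makes ATP. Complex II is encoded wholly in the nucleus, whereas the other complexes join nuclear subunits, imported from the cytosol, with a few hydrophobic subunits made inside the mitochondrion. In macrophages, bacterial products are known to shift ATP production towards glycolysis and to turn the chain towards making reactive oxygen species.

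The libraries held 15981530 to 20648832 counts, so a count of 0 allowed a level of up to 0.145 to 0.188 counts per 1000000 (CPM), which is 3 counts and covers counting error only. Tmem206, the gene of PAC, had 6.33, 12.2 and 8.16 CPM in control replicates 1 to 3 and 4.27, 6.13 and 5.49 CPM in knockout replicates 1 to 3. Each knockout library lay below each control library; the log2 fold change was -0.75 (SE 0.31) and the two-sided exact permutation p was 0.10, which is the lower limit for 3 against 3 libraries. On leaving out control replicate 2 it was -0.45. The 13 markers of large peritoneal macrophages, among them Adgre1, Timd4 and Gata6, were detected in every library and summed to 8690 to 10094 CPM in the control and 9745 to 11032 CPM in the knockout. The 12 markers of B cells summed to 84.1 to 571 CPM in the control, highest in control replicate 2, and 107 to 366 CPM in the knockout; of these only Vpreb3 was at 0 in a library. The 11 markers of small peritoneal macrophages and monocytes summed to 717 to 1245 CPM in the control and 168 to 648 CPM in the knockout. These sums did not overlap. Retnla made up most of them, and its own groups overlapped, at 539 to 1005 CPM in the control and 94.8 to 541 CPM in the knockout. The groups of Irf4, Mgl2, Folr2, Cd209a, Cx3cr1 and Ly6c2 also overlapped, whereas those of Ccr2, Cd226, Fcrls and Clec10a did not. Cx3cr1 was at 0 in 2 knockout libraries and Ly6c2 at 0 in 1 library of each group. The 9 mast cell and eosinophil markers in the table summed to 58.5 to 148 CPM in the control and 140 to 252 CPM in the knockout. Hdc made up most of that sum, with 52.2 to 139 CPM in the control and 138 to 216 CPM in the knockout, while Kit was at 0 in 1 control library and Cpa3 at 1.22 to 6.40 CPM in all. In bulk RNA, fewer cells of a type and less RNA per cell cannot be told apart. The part of these cells in the differences below was not tested.

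No oxidative phosphorylation gene passed the test between genotypes, and neither did any other gene. By edgeR's quasi-likelihood test 0 of 12786 genes (0%) had an adjusted p under 0.05, with 0.997 as the smallest value. Unadjusted edgeR p-values were under 0.05 for 4.18% of genes, of which 267 (2.09%) had higher and 267 (2.09%) lower values in the knockout. Of the 100 oxidative phosphorylation genes 98 were abundant enough to test, all but Cox6b2 and mt-Atp8. At an unadjusted edgeR p under 0.05 were 5 of them on the higher side (Atp5g1, Atp5mpl, Ndufa7, Ndufa4 and Ndufa5) and 0 on the lower. DESeq2, which called 22 of all genes (0.172%), called 1 of the 98, Atp5g1.

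Fold changes of the 98 genes were small and more often above 0 than below. Their median log2 fold change (knockout over control) was 0.10, against -0.01 over all genes tested, and 71 of 98 were higher in the knockout, against 48.8% of all genes tested. The nuclear genes had a median of 0.10 with 62 of 86 higher, and the mitochondrial genes 0.13 with 9 of 12 higher. The nuclear median rested on single control libraries: it was 0.02 without control replicate 2, 0.05 without control replicate 1 and 0.25 without control replicate 3. It was also 0.05 without knockout replicate 3. The mitochondrial median rested on knockout replicate 1, without which it was -0.14 with 1 of 12 genes higher. It was 0.01 without control replicate 2, 0.02 without control replicate 3, 0.30 without control replicate 1 and 0.32 without knockout replicate 2.

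**Figure D1:**
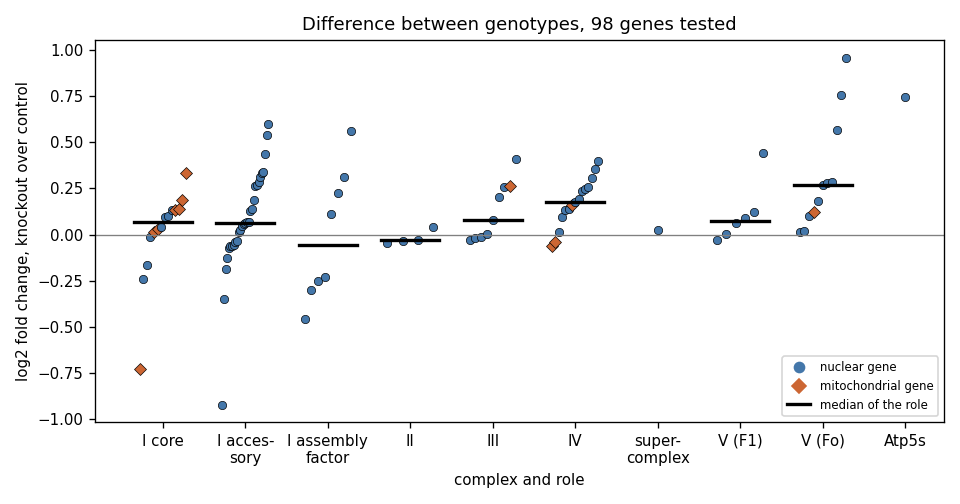
Log2 fold change (knockout over control, edgeR) of each of the 98 genes tested, grouped on the horizontal axis by complex and role; circles are nuclear genes, diamonds mitochondrial genes and bars the median of each role. The Fo genes of complex V all lie above 0, with Atp5g1 at 0.96 the highest, while the complex II genes lie within 0.05 of 0 and 3 of the 4 are below it.

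The highest levels were those of mitochondrial genes, although 6 of the 13, described below, lay within the range of the nuclear genes. Levels in fragments per kilobase and 1000000 reads (FPKM, the authors' per-length level) were averaged here over the 6 libraries. By this measure mt-Co1, the catalytic subunit of complex IV, stood at 3576 and mt-Nd1 of complex I at 1616. A haem-bearing subunit of complex III, mt-Cytb, was at 1486. The highest nuclear gene was Cox6a1, a small subunit of complex IV, at 176 FPKM. It was followed by Cox7a2l, a factor that joins complexes III and IV into supercomplexes, at 167 FPKM and Atp5a1, the alpha subunit of the ATP synthase, at 147 FPKM. Cox8a at 141, Cox4i1 at 124 and Atp5b, the catalytic beta subunit, at 103 FPKM came next. The complex I assembly factors had a median of 2.60 FPKM, below that of every role but the lone Atp5s at 1.20 FPKM, and ran from 1.02 for Ndufaf6 to 7.83 for Ndufaf8; assembly factors act on the complex while it is built and are not part of it. Accessory subunits of complex I had a median of 13.7 FPKM and nuclear subunits of complex IV 35.3 FPKM.

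**Figure D2:**
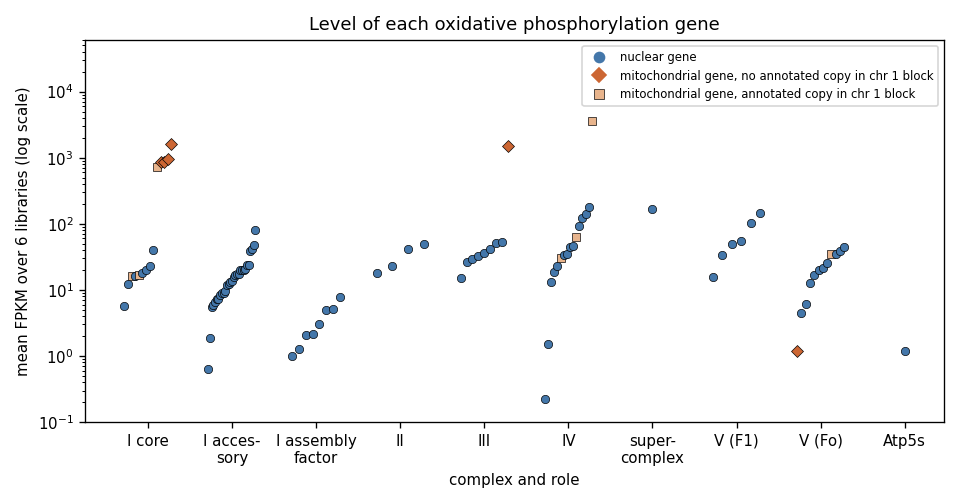
Mean FPKM over the 6 libraries (log axis) of each of the 100 genes, grouped by complex and role; circles are nuclear genes, diamonds mitochondrial genes without and squares mitochondrial genes with an annotated copy in a block on chromosome 1. Mitochondrial genes without such a copy lie at or above 855 FPKM apart from mt-Atp8 at 1.18, whereas those whose whole length is copied lie between 16.4 and 63.2 FPKM.

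Of the tissue isoforms, the widely expressed forms carried nearly all of the signal. Cox6a1 stood at 176 FPKM, Cox4i1 at 124 and Cox6b1 at 91.6, while Cox6b2, the testis form of Cox6b1, was at 0.225. Cox7a2 stood at 35.3 FPKM and its heart and muscle form Cox7a1 at 1.501. Cox7a1 had 0.463, 0.928 and 0.579 CPM in the control and 0.474, 0.696 and 1.16 CPM in the knockout, a log2 fold change of 0.25 with an SE of 0.77. Its groups overlapped, and without knockout replicate 3 the value was -0.16. The symbols Cox4i2, Cox6a2, Cox8b and Ndufa4l2 also fit the name rule, but the deposited table held no protein-coding gene under them.

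Of the 13 mitochondrial genes, 7 have a near-identical annotated copy on chromosome 1, in a block between 24611535 and 24616197 (minus strand, GRCm38, from GENCODE M21 transcripts), a nuclear insertion of mitochondrial DNA. Over the aligned stretch mt-Nd4l, mt-Co3, mt-Atp6 and mt-Co2 were identical to their copies, as were 876 of the 1378 bases of mt-Nd4. For mt-Co1 31.3% of the gene was aligned, with 1 mismatch. The first bases of mt-Nd3 (chrMT:9459-9806, plus strand) and of its copy Gm28438 (chr1:24612775-24613119, minus strand) are shown because they hold the only mismatch between them, T3C counted from the start of mt-Nd3; the capital marks it.
mt-Nd3: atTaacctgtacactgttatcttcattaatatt
Gm28438: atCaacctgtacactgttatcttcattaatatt
A read from either could fit both, and the sources used here do not give how the authors' counting treated such reads, so the values of these 7 genes are uncertain.

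The genes copied along nearly their whole length (99.0% to 99.9%) stood at 16.4 FPKM (mt-Nd3), 16.6 (mt-Nd4l), 30.0 (mt-Co3), 34.3 (mt-Atp6) and 63.2 (mt-Co2). The partly copied mt-Nd4 stood at 715 FPKM and mt-Co1 at 3576. Of the genes with no annotated copy, mt-Nd6, the only member on the other strand of mitochondrial DNA, stood at 855 FPKM, mt-Nd5 at 873 and mt-Nd2 at 944. Without a stated strand setting, reads from the opposite strand at mt-Nd6 cannot be told from its own, so its value is uncertain. For mt-Atp8, which overlaps mt-Atp6, the files hold 2, 1 and 6 counts in the control and 11, 0 and 3 in the knockout, so that no fold was computed. Only annotated copies were compared. The stretch of the block between the copies of mt-Atp6 and mt-Co2, from 24614651 to 24614885, was not. Whether it holds a copy of mt-Atp8 was not tested, so the value of mt-Atp8 is uncertain too. Whether the low values of the copied genes come from reads with several matches was not tested.

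Mitochondrial genes differed more between libraries of a genotype than between the genotypes. Their summed counts were 1.27%, 1.03% and 0.948% of the library in control replicates 1 to 3 and 1.54%, 0.931% and 1.14% in knockout replicates 1 to 3. The control averaged 1.08% ± 0.171 (SD, n = 3) and the knockout 1.21% ± 0.312 (SD, n = 3), a difference smaller than either SD, and the range of the knockout enclosed that of the control. Knockout replicate 1 was the highest library for 11 of the 12 tested mitochondrial genes, against 15.8% of all genes tested. Knockout replicate 2 was the lowest for 8 of the 12, against 14.7% of all genes tested. Thus the highest and the lowest library both came from the knockout.

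Among single mitochondrial genes, mt-Co1 had 5833, 4194 and 3921 CPM in the control and 6518, 4300 and 4793 CPM in the knockout. Its groups overlapped, with a log2 fold change of 0.16 (SE 0.20). mt-Cytb stood at 0.26 (SE 0.17), and mt-Nd1 at 0.19 (SE 0.19). The complex I genes mt-Nd2, mt-Nd4, mt-Nd5 and mt-Nd6 lay between 0.01 and 0.14, and mt-Nd2 was -0.08 under limma-voom. The copied genes mt-Co2 and mt-Co3 stood at -0.04 and -0.06, mt-Atp6 at 0.12 and mt-Nd4l at 0.33 (SE 0.43). All of these had overlapping groups.

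mt-Nd3, a membrane subunit of complex I, was the only mitochondrial gene without overlap: it had 7.72, 6.15 and 5.16 CPM in the control and 4.68, 1.90 and 4.88 CPM in the knockout. Its log2 fold change was -0.73 (SE 0.39). The knockout values lay below the control values mainly through knockout replicate 2, without which the log2 fold change was -0.41. Over all genes tested 9.33% had groups that did not overlap, 4.86% with the knockout wholly below the control, and of the 98 genes mt-Nd3 was the only such gene. Its copy Gm28438 had only 15, 7 and 11 counts in the control and 12, 2 and 11 in the knockout. The groups of the copy overlapped, and its log2 fold change of -0.27 rests on these few counts.

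The nuclear genes summed to 0.335%, 0.368% and 0.447% of the library in control replicates 1 to 3 and to 0.405%, 0.388% and 0.436% in knockout replicates 1 to 3. The control averaged 0.383% ± 0.0580 and the knockout 0.410% ± 0.0243 (SD, n = 3 each). Both the highest and the lowest library were controls, and the knockout libraries lay between them. Control replicate 2 was the lowest library for 36 of the 86 tested nuclear genes and control replicate 1 for 22, while control replicate 3 was the highest for 32 and the lowest for 1. Over all genes tested these libraries were the lowest for 18.2%, 19.2% and 13.9% of genes, and control replicate 3 was the highest for 14.6%. The ratio of mitochondrial to nuclear counts ran from 2.12 to 3.81, with both groups spanning most of that range.

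**Figure D3:**
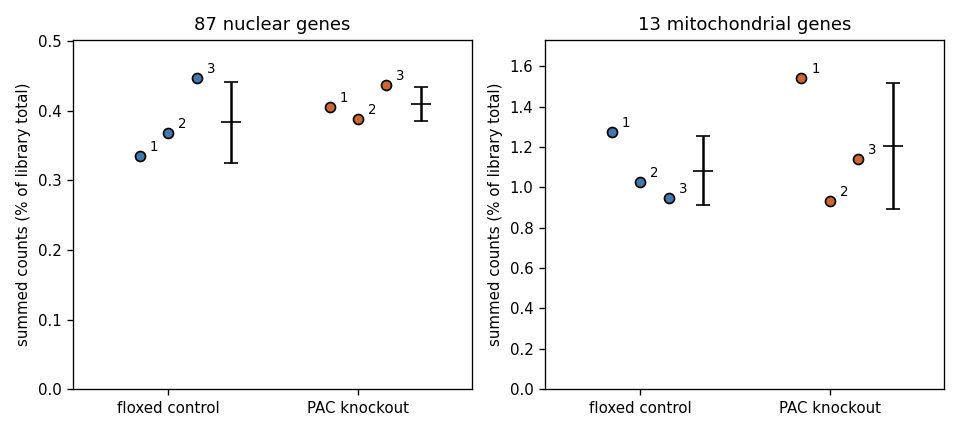
Summed counts of the 87 nuclear genes (left) and the 13 mitochondrial genes (right) as a percentage of each library's total; points are libraries with their replicate number, and the bars give the mean and SD of 3 libraries. On the left, control replicates 1 and 3 are the lowest and highest at 0.335% and 0.447%; on the right, knockout replicates 2 and 1 are the lowest and highest at 0.931% and 1.54%.

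Complex I, the NADH dehydrogenase, showed no common direction. Of its 36 nuclear subunits 23 had higher and 13 lower values in the knockout, and their median log2 fold change was 0.06. The median was 0.00 without control replicate 2, 0.02 without knockout replicate 3, 0.03 without control replicate 1 and 0.25 without control replicate 3. On leaving out knockout replicate 1 it was 0.10. The sums of these subunits, 0.0728% to 0.0987% of the library in the control, enclosed those of the knockout, 0.0838% to 0.0925%.

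The 7 nuclear core subunits, which carry the flavin and the iron-sulfur clusters, lay between -0.24 and 0.13. Ndufs8, which holds iron-sulfur clusters next to the quinone site, was at -0.24 (SE 0.21), with 20.2, 22.4 and 21.6 CPM in the control and 17.5, 13.7 and 23.2 CPM in the knockout. Knockout replicate 3 was the highest and knockout replicate 2 the lowest library, and without the latter the value was -0.07.

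The 29 accessory subunits, which surround the core without carrying redox groups, ran from -0.92 to 0.60, with 19 higher and 10 lower. Ndufa5 had 9.16, 7.02 and 12.7 CPM in the control and 16.8, 12.8 and 14.1 CPM in the knockout, without overlap but with control replicate 3 close to knockout replicate 2. Its log2 fold change was 0.60 (SE 0.26). Ndufa7 had 23.8, 22.8 and 32.1 CPM in the control and 39.6, 35.3 and 31.9 CPM in the knockout, a log2 fold change of 0.44 (SE 0.17). Here control replicate 3 just exceeded knockout replicate 3. Ndufs6, a zinc-binding subunit, had 7.88, 6.73 and 9.63 CPM in the control and 9.55, 13.2 and 12.5 CPM in the knockout (log2 fold change 0.54, SE 0.25). Ndufa1, the accessory subunit of highest level at 81.1 FPKM, was at 0.34 (SE 0.31); control replicate 3, at 42.0 CPM, was its highest library, and without that library the value was 0.81. Ndufa10 (0.26) and Ndufc2 (0.31), singled out after their values were seen, were the other accessory subunits whose knockout libraries all lay above the control.

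At the other end, Ndufb2, also singled out after its values were seen, had 3.76, 6.49 and 2.42 CPM in the control and 1.36, 3.604 and 1.72 CPM in the knockout. Its groups overlapped and its log2 fold change of -0.92 had an SE of 0.51. The 8 assembly factors split evenly, 4 higher and 4 lower, with a median of -0.06 that was 0.05 without control replicate 3, 0.01 without control replicate 1, 0.02 without knockout replicate 3 and -0.10 without knockout replicate 2. Ndufaf5, which modifies the core subunit Ndufs7, stood at 0.56 (SE 0.44), its partner Ndufaf8 at 0.31 (SE 0.30) and Ndufaf4 at -0.30 (SE 0.27). Without control replicate 3 Ndufaf5 came to 1.02 and Ndufaf8 to 0.52, without control replicate 2 Ndufaf5 to 0.26 and Ndufaf4 to -0.17, and without control replicate 1 Ndufaf8 to 0.17. Ndufaf4 came to -0.46 without knockout replicate 3. The groups overlapped for each of these 3 genes, which were counted at 1.45 to 9.16 CPM.

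Complex II, succinate dehydrogenase, was the complex with the smallest differences. The flavoprotein Sdha had 155, 148 and 159 CPM in the control and 143, 147 and 157 CPM in the knockout, a log2 fold change of -0.05 (SE 0.12). The iron-sulfur subunit Sdhb stood at 0.04 (SE 0.13), and the membrane anchors Sdhc and Sdhd at -0.03 (SE 0.14) and -0.04 (SE 0.13). All 4 had overlapping groups, and the median of -0.03 ranged from -0.06 to 0.03 when single libraries were left out. With SEs of 0.12 to 0.14 a small difference cannot be seen at this depth and number of libraries.

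Complex III, which passes electrons from ubiquinol to cytochrome c, had 5 nuclear subunits higher and 3 lower, with a median log2 fold change of 0.04. The median was -0.02 without control replicate 2, 0.00 without knockout replicate 3, 0.12 without control replicate 3 or knockout replicate 1 and 0.08 without knockout replicate 2. The large subunits Uqcrc1 and Uqcrc2 lay within 0.02 of 0, and the Rieske iron-sulfur protein Uqcrfs1 (53.3 FPKM, the highest nuclear gene of the complex) stood at -0.03. The small subunits ranged from 0.00 to 0.41. Uqcrb, the highest of them, had 18.1, 17.2 and 38.3 CPM in the control and 28.4, 30.3 and 39.1 CPM in the knockout, a log2 fold change of 0.41 (SE 0.31). Control replicate 3 matched the knockout while the other control libraries lay below it, and without that replicate the value was 0.89. Uqcrb shares 43.2% of its 50-base words with another gene, Gm16089, and its counts are uncertain. Uqcr11 stood at 0.26 (SE 0.28) and at 0.70 without control replicate 3.

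All 12 tested nuclear subunits of complex IV, cytochrome c oxidase, had higher values in the knockout, while 2 of its 3 mitochondrial subunits had lower ones. Those 2, mt-Co2 and mt-Co3, are copied genes of uncertain value. Without control replicate 1 they came to 0.16 and 0.17, and without knockout replicate 2 to 0.14 and 0.13. The nuclear median was 0.21, from 0.02 to 0.40, and the highest share of the library was nevertheless that of a control: 0.0533%, 0.0601% and 0.0782% in the control and 0.0731%, 0.0706% and 0.0774% in the knockout. The median was 0.10 without control replicate 1 or 2 and 0.35 without control replicate 3. Of the 12 nuclear subunits 10 were higher without control replicate 2 or knockout replicate 3, and 11 without knockout replicate 2.

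Ndufa4, named for complex I but a subunit of complex IV, had 41.8, 45.1 and 58.8 CPM in the control and 61.0, 61.4 and 63.7 CPM in the knockout. Each knockout library lay above each control library, with control replicate 3 close to them, and the log2 fold change was 0.35 (SE 0.15). Cox5a, a matrix-side subunit, also lay above in all 3, with 29.0, 35.3 and 31.9 CPM in the control and 38.5, 36.9 and 39.5 CPM in the knockout (log2 fold change 0.26, SE 0.14). Over all genes tested, 4.47% had a knockout wholly above the control. Of the 98 genes 7 did: Ndufa5, Ndufa10, Ndufc2, Cox5a, Ndufa4, Atp5g1 and Atp5mpl.

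Cox7c, a small membrane subunit, had 36.5, 30.7 and 52.2 CPM in the control and 48.6, 55.8 and 52.9 CPM in the knockout, a log2 fold change of 0.40 (SE 0.19). It shares 27.9% of its 50-base words with Gm10012, so its counts are uncertain. Cox4i1, a regulatory subunit, stood at 0.24 (SE 0.14), Cox6a1 at 0.19 (SE 0.15), Cox8a at 0.18 (SE 0.19), Cox6b1 at 0.13 (SE 0.16) and Cox7a2 at 0.02 (SE 0.15). Without control replicate 1 Cox6b1 came to 0.00 and Cox8a to 0.03. The supercomplex factor Cox7a2l, at 0.03 (SE 0.14), had 182, 137 and 188 CPM in the control and 165, 179 and 173 CPM in the knockout.

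In complex V, the 6 genes of the catalytic F1 head had a median log2 fold change of 0.08, from -0.03 to 0.44, and the 11 tested genes of the membrane-bound Fo part 0.27, from 0.02 to 0.96; the difference between the parts was not tested. Of the nuclear subunits 15 of 16 had higher values in the knockout, with a median of 0.15 that was 0.09 without control replicate 2 and 0.29 without control replicate 3. Of these 16 subunits 11 were higher without control replicate 1 or knockout replicate 3, and 12 without control replicate 2. All 16 were higher without control replicate 3 or knockout replicate 2, and 15 without knockout replicate 1. Of the F1 genes, Atp5a1 stood at 0.01 (SE 0.13), Atp5b at 0.12 (SE 0.14) and Atp5c1, the gamma subunit of the rotating stalk, at 0.09 (SE 0.17). Scaled by library totals alone Atp5a1 was -0.00476. Atp5e, the epsilon subunit of the same stalk, had 35.5, 33.8 and 66.8 CPM in the control and 59.8, 62.5 and 62.7 CPM in the knockout. Control replicate 3 was its highest library, and the log2 fold change of 0.44 (SE 0.24) was 0.83 without it.

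The largest fold change among the 98 genes was in the c-ring of Fo, the rotor that protons turn. Mammals encode its c subunit in 3 nuclear genes, Atp5g1, Atp5g2 and Atp5g3 (now Atp5mc1 to Atp5mc3), whose products differ in the import sequence and yield the same mature protein. Atp5g1 (ENSMUSG00000006057, chr11:96068852-96075670, minus strand, GRCm38) had 279, 187 and 284 counts in the control and 506, 323 and 500 in the knockout. Scaled to library size these were 14.4, 10.8 and 14.95 CPM in the control and 30.0, 20.4 and 27.7 CPM in the knockout. Every knockout library stood above every control library, with control replicate 2 the lowest and knockout replicate 1 the highest. The means were 13.4 ± 2.22 and 26.0 ± 5.003 CPM (SD, n = 3 each).

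The log2 fold change of Atp5g1 was 0.96 (SE 0.21), with an unadjusted edgeR p of 0.00079 and an edgeR adjusted p of 0.997. It stayed between 0.83 and 1.11 on leaving out any single library. DESeq2 gave it an adjusted p of 0.046, and edgeR without a filter on abundance 0.0100. In the authors' deposited table its log2 fold change is 0.96 and its adjusted p 0.0531.

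The other c-subunit genes had smaller differences. Atp5g2 had 55.0, 55.1 and 70.9 CPM in the control and 83.4, 60.6 and 75.6 CPM in the knockout, a log2 fold change of 0.28 (SE 0.16). Atp5g3 had 59.2, 60.5 and 82.8 CPM in the control and 68.6, 62.4 and 74.6 CPM in the knockout, a log2 fold change of 0.02 (SE 0.16). For both genes the groups overlapped, and for Atp5g3 the highest and the lowest library were controls. The difference in response between the c-subunit genes was not tested. Per length, Atp5g1 was the lowest of the 3 at 4.49 FPKM, with Atp5g2 at 44.6 and Atp5g3 at 34.9; the exonic length listed for Atp5g1, 4912 bases, exceeds the 1675 and 2181 bases of the others, and a shorter transcript would have a higher value per length.

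The promoters of the c-subunit genes are shown because these genes make the same mature protein at different levels. Each runs from 250 bases before to 50 bases after the RefSeq start (GRCm38.p6), 5′ to 3′ on the gene's strand (minus for all), and capitals mark CCAAT on either strand and the site of the respiratory gene regulator NRF1, the letters GCGCA followed by their reverse complement. Atp5g1 is chr11:96075582-96075881, Atp5g2 chr15:102670998-102671297 and Atp5g3 chr2:73911277-73911576; the files place the 5′ end of Atp5g2 at 102672352, outside this window.
Atp5g1: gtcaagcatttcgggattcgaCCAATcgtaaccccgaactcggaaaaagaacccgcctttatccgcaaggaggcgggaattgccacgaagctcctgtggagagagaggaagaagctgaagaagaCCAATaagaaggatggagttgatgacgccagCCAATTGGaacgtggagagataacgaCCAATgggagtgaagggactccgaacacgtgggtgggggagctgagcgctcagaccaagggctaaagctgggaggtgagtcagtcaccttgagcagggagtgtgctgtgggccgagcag
Atp5g2: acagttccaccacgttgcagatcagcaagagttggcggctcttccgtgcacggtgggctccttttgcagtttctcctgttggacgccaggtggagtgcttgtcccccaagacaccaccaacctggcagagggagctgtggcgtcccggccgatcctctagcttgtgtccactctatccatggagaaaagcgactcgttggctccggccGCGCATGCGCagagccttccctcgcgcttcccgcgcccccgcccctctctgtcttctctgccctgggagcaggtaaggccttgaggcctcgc
Atp5g3: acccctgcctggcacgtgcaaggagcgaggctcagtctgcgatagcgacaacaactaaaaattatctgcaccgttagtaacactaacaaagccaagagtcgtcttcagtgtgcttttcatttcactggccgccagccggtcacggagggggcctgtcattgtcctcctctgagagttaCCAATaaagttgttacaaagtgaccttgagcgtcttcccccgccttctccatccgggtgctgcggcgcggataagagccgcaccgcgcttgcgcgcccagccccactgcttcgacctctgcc
Atp5g1 holds CCAAT on 5 positions, of which 1 is on the opposite strand and overlaps another, Atp5g2 holds the NRF1 site, which reads the same on both strands, and Atp5g3 holds CCAAT once. No other motif searched was in these windows.

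Promoters were found for 72 of the 87 nuclear genes, matched by symbol. The NRF1 letters were in a promoter of 9.72% of these 72 genes. They were in a promoter of 1.07% of all genes in the RefSeq table and of 2.44% of the tested genes found there. CCGGAAG, the core bound by ETS factors such as GABP, was in 25% against 9.93% and 21.1%. AAGATGGC, bound by YY1, was in 13.9% against 3.19% and 5.57%, and CCAAT in 44.4% against 41.1% and 43.2%. All were searched on both strands. Tested genes whose promoter held the NRF1 letters had a median log2 fold change of 0.19 (7 genes) against 0.09 without (64 genes), and for ETS the medians were 0.16 (18 genes) and 0.07 (53 genes). For YY1 they were 0.06 (10 genes) and 0.10 (61 genes), the other way round, and for CCAAT 0.13 (31 genes) and 0.07 (40 genes). These are descriptions of few promoters, and a match is no evidence of binding.

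Among the other Fo genes, Atp5mpl, a small proteolipid of the synthase, had 11.99, 12.7 and 23.6 CPM in the control and 29.9, 25.1 and 26.7 CPM in the knockout. All knockout libraries lay above the control, with control replicate 3 near the lowest of them. The log2 fold change was 0.76 (SE 0.25). It was 1.14 without control replicate 3. Atp5k, subunit e, which sits where synthase dimers meet, had 8.70, 8.001 and 12.2 CPM in the control and 11.3, 10.6 and 20.9 CPM in the knockout (log2 fold change 0.57, SE 0.30). Knockout replicate 3 was well above the rest, and without it the value was 0.18. Atp5s, whose symbol fits the name rule although its product, factor B, is no subunit in the usual sense, had 0.875, 2.55 and 1.47 CPM in the control and 3.08, 3.54 and 1.61 CPM in the knockout (log2 fold change 0.75, SE 0.56).

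**Figure D4:**
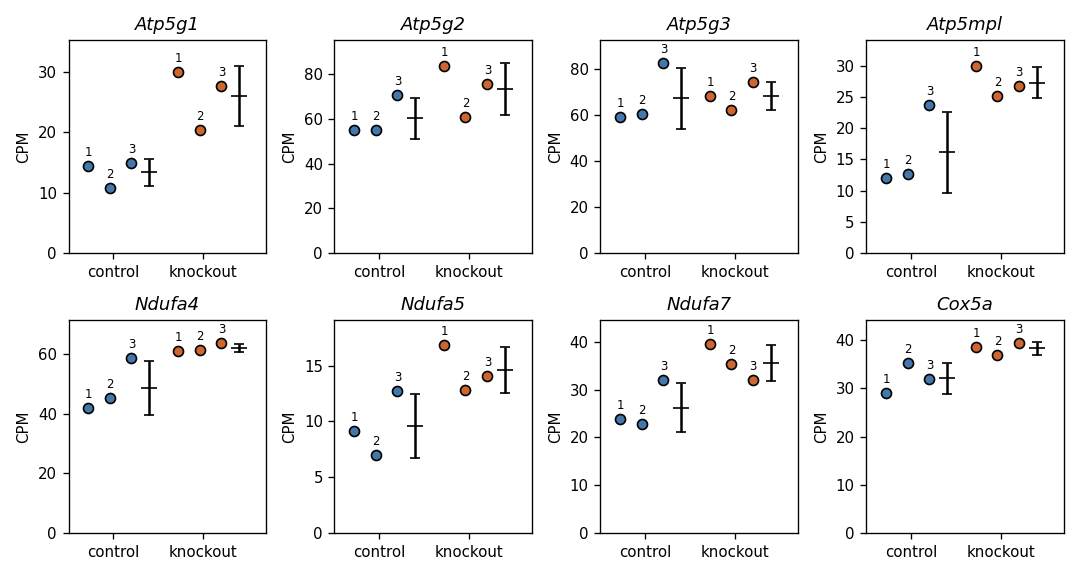
CPM scaled to library size of the 3 c-subunit genes and of 5 further oxidative phosphorylation genes in each library; points carry the replicate number, and bars give the mean and SD of 3 libraries. The groups of Atp5g1 lie apart, 10.8 to 14.95 against 20.4 to 30.0 CPM, whereas for Atp5mpl, Ndufa4, Ndufa5 and Ndufa7 control replicate 3 lies close to or within the knockout values.

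Transcript length went with the differences of the nuclear genes. The nuclear genes were split at the median length of their longest coding transcript, 936.5 bases. Of the 43 shorter ones, 38 had higher values in the knockout and the median log2 fold change was 0.24. Of the 43 longer ones, 24 were higher, with a median of 0.02. Atp5g1, which had the largest fold change at 0.96, was among the longer ones by this measure. Which of its transcripts was expressed was not tested, so its place in this relation is uncertain. Subunits of complex IV and of Fo have mostly short transcripts, and those of complex II longer ones. Across the 86 genes Spearman's rho between log2 fold change and length was -0.46, a description over genes that share the same 6 libraries.

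The same direction was present in genes with other functions, at a smaller size. Of other protein-coding genes with a transcript of up to 1000 bases, 319 of 504 (63.3%) were higher in the knockout, with a median of 0.09, and of the nuclear oxidative phosphorylation genes in that range 41 of 46 (89.1%), with a median of 0.20. Between 1000 and 2000 bases the shares were 53.9% of 2209 other genes and 58.6% of 29 oxidative phosphorylation genes. Over the 11214 other protein-coding genes with a length, rho was -0.14.

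By library, the short oxidative phosphorylation genes were low in control replicates 1 and 2 and high in control replicate 3 and knockout replicate 3. Relative to each gene's mean over libraries, the median log2 level of those up to 1000 bases was -0.26, -0.36 and 0.21 in control replicates 1 to 3 and 0.06, 0.08 and 0.22 in knockout replicates 1 to 3. For the 504 other short genes the medians were -0.11, -0.15 and 0.13 in the control and 0.04, 0.03 and 0.11 in the knockout, the same order of the control libraries. The median of the 43 shorter genes was 0.43 without control replicate 3, 0.10 without control replicate 2, 0.12 without control replicate 1 and 0.17 without knockout replicate 3. For the 43 longer genes it was 0.11, with 33 higher, without control replicate 3, and -0.02 without control replicate 1, -0.0024 without control replicate 2 and -0.03 without knockout replicate 3. What lies behind the relation with length was not tested.

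**Figure D5:**
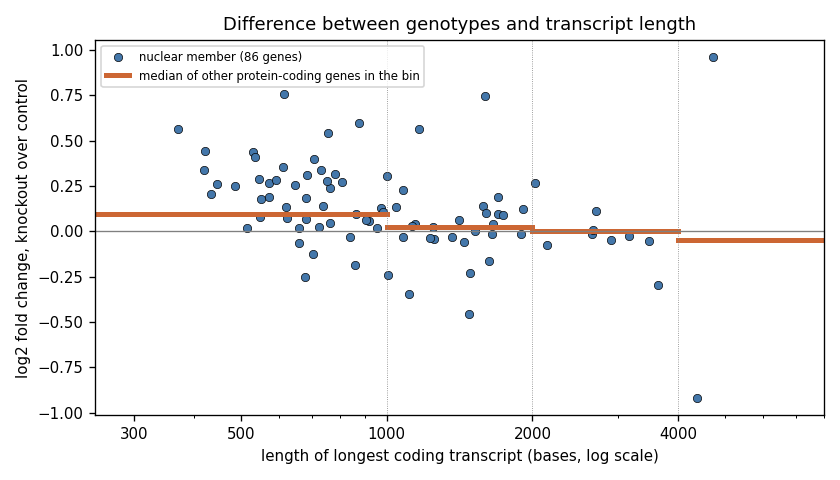
Log2 fold change (knockout over control) of the 86 tested nuclear genes against the length of the longest coding transcript (log axis); orange bars are the medians of the other protein-coding genes in each length bin, with bin limits at 1000, 2000 and 4000 bases. Most short genes lie above 0, and the bars step down from 0.09 to -0.05.

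Another 3 mitochondrial gene lists outside the complexes had medians between -0.05 and 0.07. The 77 mitochondrial ribosomal protein genes, which make the proteins that mitochondrial DNA encodes, had a median log2 fold change of 0.01 with 41 higher. Of these, Mrpl13 was at 0.60 (SE 0.25) and Mrpl42 at 0.39 (SE 0.20). The 24 tested genes of mitochondrial DNA maintenance and RNA had a median of -0.05 with 10 higher, among them Lrpprc, which stabilises mitochondrial mRNAs, at 0.18 (SE 0.12) and, on the lower side, Tbrg4 at -0.23 (SE 0.17). Of the 14 tricarboxylic acid cycle genes 12 were higher, with a median of 0.07; Idh3a was at 0.28 (SE 0.18) and Mdh2 at 0.11 (SE 0.13). None of these genes passed edgeR's adjusted threshold.

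The name rule leaves out 2 electron carriers of the chain. Cyc1, the cytochrome c1 subunit of complex III, had 48.7, 49.2 and 49.9 CPM in the control and 36.4, 38.3 and 43.8 CPM in the knockout. All knockout libraries lay below the closely spaced control libraries, with a log2 fold change of -0.32 (SE 0.13). Cycs, cytochrome c itself, stood at -0.09 (SE 0.17) with overlapping groups. Assembly factors of complexes II to V had a median of -0.05, with 14 of 31 higher. Of these Cox17, the copper chaperone of complex IV, had 5.71, 7.19 and 5.84 CPM in the control and 12.6, 10.2 and 11.4 CPM in the knockout, without overlap (log2 fold change 0.87, SE 0.24). Coa7, another assembly factor of complex IV, was at 0.73 (SE 0.38) with overlapping groups.

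Of 9 tested regulators of respiratory genes 3 were higher, with a median of -0.02. The nuclear receptor Esrra had 35.1, 37.3 and 34.4 CPM in the control and 29.4, 32.1 and 27.2 CPM in the knockout, a log2 fold change of -0.27 (SE 0.14). Yy1 had 127, 113 and 120 CPM in the control and 105, 96.2 and 107 CPM in the knockout, a log2 fold change of -0.22 (SE 0.12). For both genes all knockout libraries lay below the control, and neither passed edgeR's adjusted threshold.

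Counting limits touch some nuclear genes. Over 20% of the 50-base words of 12 of the 87 nuclear genes occur in another gene, and over 20% of the exonic bases of 4 of the 87 overlap another gene. Atp5g1 shares 10.6% of its words, and Atp5mpl, Ndufa4 and Ndufa5 share 0%.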

How the data were processed

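PolyA RNA was sequenced from 3 floxed control and 3 PAC knockout libraries, grouped by their titles. HISAT2 2.0.5 aligned the reads to GRCm38 (mm10) and featureCounts 1.5.0-p3 counted them, per the submitters' processing notes. The sources used here do not give the annotation release, the strand setting or the treatment of reads with several matches. The deposited table holds raw counts per gene, which were tested. It also holds a normalised signal, deposited by the authors and not used here. The FPKM values, which the authors computed from gene length and count per the labels' protocols, serve here only to compare levels between genes. The table's log2 fold changes and p-values were deposited by the authors and are named as theirs wherever printed. Columns of other samples numbered 0.

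edgeR's default expression filter left 12786 of 20336 genes, which were scaled by TMM. The test was the robust quasi-likelihood test of edgeR 4.0.16 (R 4.3.3) for genotype alone, with p-values adjusted over all genes by the Benjamini-Hochberg method at 0.05. Each SE is the log2 fold change over the square root of F. CPM of a gene uses TMM-scaled totals, and summed levels use plain library totals. DESeq2 1.42.0, limma 3.58.1 (voom with quality weights) and the other alternatives are compared in the closing section. The procedure was tested on simulated data. All library pairs differed beyond sampling noise, with a chi-square per gene of at least 25.3, the value between control replicate 3 and knockout replicate 3. The 100 genes (the members) and the lists were chosen with earlier results of these data known. The rule for named genes took all mitochondrial and complex II genes, the c-subunit genes and isoform pairs. In each role it took the gene of highest FPKM and the 3 of smallest p, and in each pathway list the 2 of smallest p. Every gene at an unadjusted p under 0.05 was also taken. Of the genes so named, 1 is not reported here. Transcript lengths, overlaps and shared 50-base words come from GENCODE M21, and promoters from RefSeq.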

Additional observations from a re-analysis of the deposited data

How the results depend on the processing

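Under other size factors, library totals alone, scaling from nuclear-encoded genes, other filters, DESeq2, limma-voom and a replicate block, the medians of all, of nuclear and of mitochondrial members kept their sign. The numbers did not pair the libraries by the criterion used, a correlation over 0.1 for every pair: the correlations of deviations between same-numbered libraries were -0.048, -0.061 and 0.085, and only the libraries numbered 3 correlated best with their own number. These were also the closest of all pairs, with a chi-square per gene of 25.3. Between control replicate 3 and control replicates 1 and 2 it was 61.0 and 37.4. The sample codes of the libraries numbered 3 follow each other. So do those of knockout replicates 1 and 2, which had a chi-square of 32.0. Control replicate 3 and knockout replicate 1, whose codes do not, had 30.3. Control replicates 1 and 2, in which the short oxidative phosphorylation genes were low, carry the lowest codes of all and had a chi-square of 46.8. The meaning of the codes is not given, and their part in the differences was not tested. The replicate block gave 0 genes called in either direction. With no filter, edgeR called 20 genes higher and 18 lower, and 1 member, Atp5g1. DESeq2 called 11 higher and 11 lower, and 1 member, Atp5g1. The median of the complex I assembly factors was -0.23 with the stricter filter of 1 CPM, which left 7 of them. Atp5a1 changed sign with library totals only (-0.00476), mt-Nd2 with limma-voom (-0.0788) and with the replicate block (-0.0800), and Sdhd with limma-voom (0.00668); the cause was not tested.

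Leaving out single libraries gave 0 to 8 genes called higher and 0 to 10 lower, both highest without floxed control replicate 3; there were also 5 higher without knockout replicate 1 and 2 lower without control replicate 1. Members called stayed at 0. The medians ranged from 0.0229 to 0.19 for all members, 0.0229 to 0.25 for nuclear members and -0.14 to 0.32 for mitochondrial members. The ratio of summed counts, knockout mean over control mean, was 1.102 for all members (range 0.988 to 1.20), 1.07 for nuclear members (1.01 to 1.17) and 1.11 for mitochondrial members (0.957 to 1.24). Tmem206 ranged from -0.94 to -0.45. Some log2 fold changes also changed sign when a single library was left out. Among mitochondrial genes the ranges were mt-Co2 -0.27 to 0.16, mt-Co3 -0.35 to 0.17, mt-Nd2 -0.38 to 0.32, mt-Nd4 -0.18 to 0.25, mt-Atp6 -0.18 to 0.33, mt-Nd1 -0.0190 to 0.34, mt-Nd4l -0.0744 to 0.60, mt-Nd5 -0.0925 to 0.35, mt-Nd6 -0.11 to 0.33 and mt-Co1 -0.0311 to 0.36. Among nuclear genes the ranges were Atp5a1 -0.0467 to 0.11, Atp5c1 -0.0502 to 0.25, Atp5g3 -0.0639 to 0.20, Sdhc -0.0790 to 0.0666, Cox7a2 -0.0383 to 0.11, Cox7a2l -0.10 to 0.11, Sdhd -0.11 to 0.0669, Cycs -0.17 to 0.0645, Sdhb -0.0336 to 0.11 and Cox7a1 -0.16 to 0.58.

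Precision is limited by 3 libraries a group: the SE of a member's log2 fold change was at least 0.12. Counts of genes at a few CPM, such as the complex I assembly factors, carry larger errors.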

Other observations

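Atp5j, coupling factor 6 of the ATP synthase, and Gabpa, the DNA-binding subunit of the ETS factor GABP, lie head to head on chromosome 16 with overlapping 5′ ends, 700 bases from one to the other on opposite strands. Both were singled out after their values were seen. Atp5j had 39.9, 36.6 and 51.4 CPM in the control and 55.9, 44.8 and 53.6 CPM in the knockout, a log2 fold change of 0.27 (SE 0.16) with overlapping groups. Gabpa had 57.8, 70.8 and 61.0 CPM in the control and 56.4, 48.2 and 55.8 CPM in the knockout, a log2 fold change of -0.24 (SE 0.13) with every knockout library below the control. Where the genes overlap, reads of one cannot be told from reads of the other without a stated strand setting.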
